A study of Homo sapiens with 6 samples.

Results

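The genes described here serve the transport of melanosomes, the pigment granules of melanocytes, or sit on the surface of melanocytes. They were chosen as a list of 10 symbols, RAB27A, MLPH, MYO5A, RAB38, KIT, EDNRB, GPNMB, ABCB5, CAPN3 and BCAN, and looked up among the 12010 genes to which the listed transcripts belong. 9 of the 10 were found, and KIT was not analysed here. The list was chosen with earlier results of these data known. The samples were 6 RNA sequencing libraries of 92.1, an established human cell line. It was grown from a uveal melanoma, which arises from melanocytes inside the eye. 3 libraries came from cells kept for 24 h with 0.1 µM LBH589 (panobinostat, an inhibitor of histone deacetylases), and 3 from cells kept for 24 h with DMSO, its solvent. The 2 groups share the line, so the values describe 1 line. The labels do not say whether replicates were separate cultures, so p-values measure the spread between these libraries, which may be technical.

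RAB27A, a small GTPase on mature melanosomes, binds melanophilin, the product of MLPH, which in turn binds myosin Va, the actin motor encoded by MYO5A, and this complex holds melanosomes at the cell edge. RAB38 acts earlier, in the sorting of pigment enzymes to the growing melanosome. KIT and EDNRB are receptors through which stem cell factor and endothelins act on melanocytes. GPNMB is a membrane glycoprotein of melanosomes and lysosomes, ABCB5 a membrane transporter known from melanoma cells, CAPN3 a calcium-dependent protease best known from muscle, and BCAN encodes brevican, a proteoglycan of the brain's extracellular matrix.

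Levels are given in FPKM, a measure of fragments scaled to transcript length and library size, and were added up over the listed transcripts of a gene. A log2 fold change is the LBH589 mean of log2(FPKM + 1) less the DMSO mean, and understates the change of genes at low levels. limma's moderated test covered the 11520 genes that averaged 0.5 FPKM or more, with p-values adjusted by Benjamini-Hochberg and called below 0.05. The libraries' FPKM sums were 355148 to 367222 with LBH589 and 397174 to 422630 with DMSO, and 10374 to 10531 genes reached 1 FPKM with LBH589, against 9767 to 10131 with DMSO. Read depth is unknown, since low values did not fall on whole steps. The 5 melanocyte markers PMEL, MLANA, TYR, TYRP1 and DCT were all listed, summing to between 705 and 763 FPKM with LBH589 and between 2402 and 2496 FPKM with DMSO. TYRP1 held most of these sums, averaging 500 FPKM with LBH589 and 1796 FPKM with DMSO. Of the 5 markers 4 fell, and PMEL did not pass, with overlapping groups (-0.41, limma adjusted p = 0.239). DCT, at 0.258 FPKM with LBH589 and 3.32 FPKM with DMSO, passed the filter only through the DMSO libraries, so this count is a description. None of the 5 leukocyte, 4 mast cell and 4 endothelial markers was listed. 2 of 5 fibroblast markers (COL1A1, LUM) summed to between 4.23 and 5.55 FPKM with LBH589 against 1.47 to 2.52 FPKM with DMSO, and 2 of 5 epithelial markers (KRT18, EPCAM) to between 8.41 and 11.3 FPKM with LBH589 against 5.27 to 8.18 FPKM with DMSO. The part of these genes in the results was not tested.

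8 of the 9 genes fell with LBH589 and none rose. Over all genes, 48.8% were called, 21.6% fell and 27.2% rose. The 8 had values wholly lower in the LBH589 libraries, an order that 26.5% of all genes had, while 59.5% of all genes had groups that did not overlap in either direction. The median log2 fold change of the 9 genes was -1.93, against 0.08 over all 11520 genes. All 9 passed the filter on low values, ABCB5 only through its DMSO libraries, so the count of falls is a description. The gene sums also hold transcripts with an LBH589 mean under 0.5 FPKM, among them 7 of the 8 of CAPN3. From bulk RNA, fewer cells that express a gene and less of its RNA per cell cannot be told apart. The falls ran from 0.45 on the log2 scale for GPNMB to 4.13 for CAPN3. Together the 9 genes summed to 541, 434 and 487 FPKM in the LBH589 libraries and to 988, 885 and 929 FPKM in the DMSO libraries. Without GPNMB, which held most of that sum, they came to 64.1, 57.0 and 68.2 FPKM with LBH589 and to 380.0, 328 and 357 FPKM with DMSO, 5.62-fold lower on average with LBH589. RAB38, at a mean of 12.0 FPKM with LBH589 and 168 FPKM with DMSO, weighs heavily in that ratio.

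**Figure D1:**
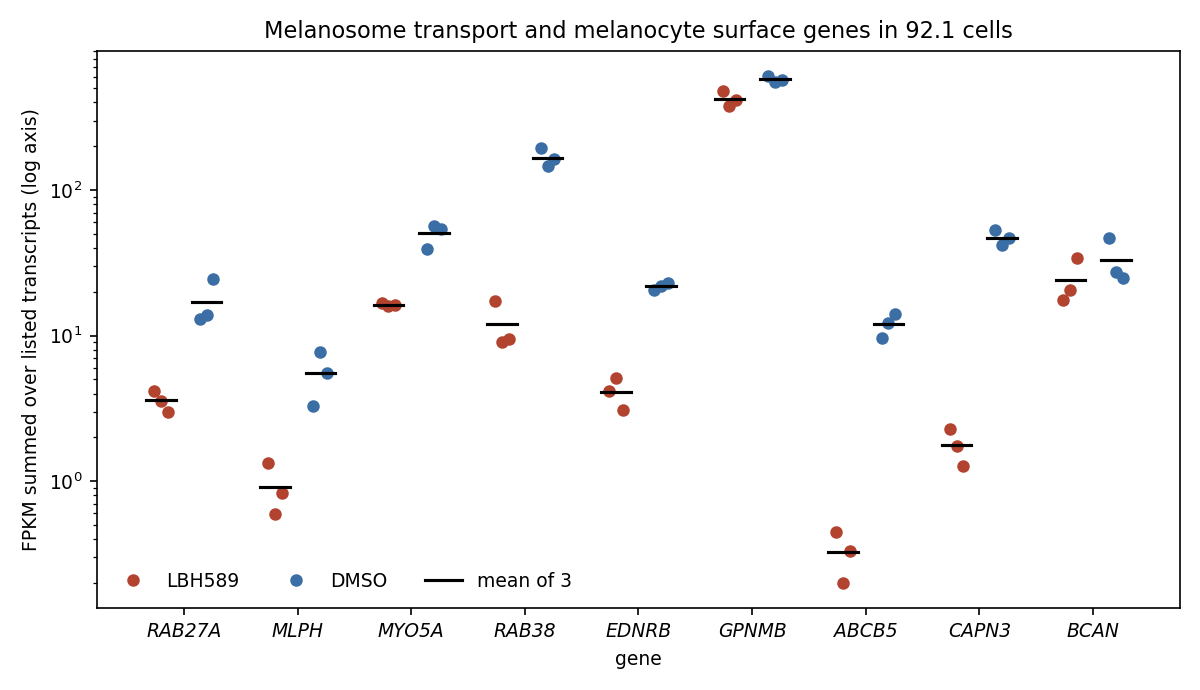
FPKM of the 9 genes, summed over listed transcripts, on a log axis; points are the 3 libraries of each group, LBH589 left and DMSO right, and lines are group means. In 8 genes all LBH589 points lie under all DMSO points, with the widest gap for ABCB5 (36.7-fold between means), and in BCAN the groups overlap.

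The order of levels changed between the treatments. With LBH589, GPNMB stood first, followed by BCAN, MYO5A, RAB38, EDNRB, RAB27A, CAPN3, MLPH and ABCB5. The ranges of MYO5A and RAB38, of EDNRB and RAB27A, and of CAPN3 and MLPH overlapped there. Differences between neighbours in the order were not tested. With DMSO the order was GPNMB, RAB38, MYO5A, CAPN3, BCAN, EDNRB, RAB27A, ABCB5 and MLPH. There the ranges of MYO5A and CAPN3, CAPN3 and BCAN, EDNRB and RAB27A, and RAB27A and ABCB5 overlapped.

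RAB38 was the most reduced of the transport genes. It was at 17.3, 9.09 and 9.47 FPKM in the LBH589 libraries, against 194, 145 and 163 FPKM in the DMSO libraries. The groups were far apart, and LBH589 replicate 1 was the highest of its group. The mean fell to 12.0 ± 4.65 FPKM with LBH589, against 168 ± 24.5 FPKM with DMSO (SD, n = 3 each), 14.0-fold lower, with a log2 fold change of -3.75 (SE 0.26, 95% interval -4.37 to -3.12, limma adjusted p = 0.000123). Among all genes, 2.71% fell by at least 2 on this scale. Its full-length transcript RAB38-201, with 211 codons, was at 14.3, 7.90 and 6.50 FPKM with LBH589 and at 156, 138 and 130 FPKM with DMSO (log2 fold change -3.81, limma adjusted p = 0.00149 over 27042 transcripts). It held 79.4 ± 9.58% of the gene's FPKM with LBH589 and 84.9 ± 8.54% with DMSO. The short RAB38-203 also fell (-3.51, limma adjusted p = 0.0417), a call that ended without any 1 of 5 libraries (DMSO replicates 1 and 3 and each LBH589 replicate; adjusted p 0.0977 to 0.127).

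Of 25 genes that work with RAB38 or in the sorting of melanosome cargo, 25 were tested, 3 rose and 3 fell, with a median log2 fold change of 0.07. RAB32, the close relative that shares RAB38's role, fell to 6.81 ± 0.784 FPKM with LBH589, against 35.8 ± 5.37 FPKM with DMSO (-2.23, limma adjusted p = 9.76e-05). HPS4 and HPS1, which form the complex BLOC-3 that activates both GTPases, fell by 1.24 (adjusted p = 0.0315) and 0.70 (adjusted p = 0.0491) on the log2 scale in limma's test. HPS4 lost its call without LBH589 replicate 1 (adjusted p = 0.0670) and without LBH589 replicate 3 (adjusted p = 0.0917), with equal library sums (adjusted p = 0.0532), and with its most abundant transcript alone (-0.75, adjusted p = 0.637). HPS1 lost it without any 1 library other than LBH589 replicate 2 (adjusted p 0.0567 to 0.139), with equal library sums (adjusted p = 0.119) and with a pseudocount of 0.1 (adjusted p = 0.0510). STX12, a SNARE protein that receives melanosome cargo, rose by 1.04 (limma adjusted p = 0.000464), and AP3S1, a subunit of the adaptor AP-3, by 1.18 (limma adjusted p = 0.00626). ANKRD27, the effector known as VARP, rose by 0.35 (limma adjusted p = 0.0343), a call that held among single libraries left out only without DMSO replicate 1 (adjusted p 0.0606 to 0.117 without any other, and 0.0518 with its most abundant transcript alone). The other 19, among them most subunits of BLOC-1, BLOC-2 and AP-3, did not pass.

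The 3 genes of the transport complex fell together. RAB27A was at 4.16, 3.58 and 3.01 FPKM in the LBH589 libraries, against 13.0, 13.8 and 24.6 FPKM in the DMSO libraries. The groups did not overlap, and DMSO replicate 3 stood above the rest. Its mean was 3.59 ± 0.577 FPKM with LBH589 and 17.1 ± 6.51 FPKM with DMSO, a log2 fold change of -1.93 (SE 0.26, 95% interval -2.57 to -1.30, limma adjusted p = 0.00156).

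MLPH was at 1.33, 0.592 and 0.834 FPKM in the LBH589 libraries, against 3.30, 7.70 and 5.56 FPKM in the DMSO libraries. All DMSO values lay above all LBH589 values, with a more than 2-fold range inside each group. Its mean was 0.919 ± 0.377 FPKM with LBH589 and 5.52 ± 2.20 FPKM with DMSO (-1.72, SE 0.29, 95% interval -2.44 to -1.01, limma adjusted p = 0.00405). In the DMSO libraries the sum rested mostly on transcripts whose coding annotation is incomplete. The 1 listed transcript with the complete frame of 600 codons, MLPH-201, was at 0.0370, 0.592 and 0.238 FPKM with LBH589 and at 1.20, 0.0162 and 0.754 FPKM with DMSO, with overlapping groups. Neither of the 2 tested MLPH transcripts passed, and when MLPH-205, the most abundant one, stood for the gene, it was no longer called (-1.14, limma adjusted p = 0.187).

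MYO5A was at 16.7, 16.1 and 16.2 FPKM in the LBH589 libraries, against 39.6, 57.1 and 54.4 FPKM in the DMSO libraries. The LBH589 values were almost equal and all below DMSO. Its mean was 16.3 ± 0.330 FPKM with LBH589 and 50.3 ± 9.45 FPKM with DMSO (-1.55, SE 0.15, 95% interval -1.92 to -1.18, limma adjusted p = 0.000479).

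Because the 3 proteins work as 1 complex, the ratios of their RNAs were compared per library. The log2 ratio of RAB27A to MYO5A averaged -2.20 ± 0.214 with LBH589 and -1.60 ± 0.455 with DMSO, with overlapping groups (difference -0.60, exact two-sided permutation p = 0.2). The log2 ratio of MLPH to MYO5A averaged -4.23 ± 0.559 with LBH589 and -3.25 ± 0.347 with DMSO, and the groups did not overlap (difference -0.98, exact permutation p = 0.1, the smallest that 3 against 3 can give). For RAB27A to MLPH it was 1.64, 2.60 and 1.85 with LBH589 and 1.97, 0.84 and 2.15 with DMSO, with overlap (difference 0.38, exact permutation p = 0.6). Adjusted over the 3 ratios, these p-values were 0.3, 0.3 and 0.6. With a smallest possible p of 0.1, this test could not have passed 0.05, so it does not say whether the 3 genes changed unequally.

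MYO5A RNA is spliced in ways that bear on melanosome transport, so some of its alternative exons are shown. The 75-base exon is known as exon F, which melanocyte myosin Va needs to bind melanophilin. The 81-base exon is known as exon D, which the melanocyte form of the protein also carries. In GENCODE 29 (GRCh38) they lie on the minus strand at chr15:52337810-52337884 and chr15:52343117-52343197. Both are coding exons. They are printed from the transcripts MYO5A-209 and MYO5A-205, with the exon in capitals and 15 bases of each neighbouring exon in lower case.
MYO5A exon F: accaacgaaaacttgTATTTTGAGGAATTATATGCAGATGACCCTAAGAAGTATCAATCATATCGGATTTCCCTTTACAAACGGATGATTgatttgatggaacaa
MYO5A exon D: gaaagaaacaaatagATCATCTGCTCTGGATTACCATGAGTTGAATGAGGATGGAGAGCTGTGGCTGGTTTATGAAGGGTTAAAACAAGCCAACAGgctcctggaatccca

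The 7 listed MYO5A transcripts were grouped by these exons. A further short coding exon, present in MYO5A-201, MYO5A-205, MYO5A-209 and MYO5A-212, was not used for the grouping. MYO5A-209, with exon F and without exon D, was at 5.32, 3.13 and 4.84 FPKM with LBH589, against 11.4, 20.3 and 16.8 FPKM with DMSO. The 2 transcripts with both exons, MYO5A-203 and MYO5A-212, summed to 3.31, 3.27 and 3.07 FPKM with LBH589 and to 6.69, 10.6 and 8.37 FPKM with DMSO. In both groups of transcripts every LBH589 library was below every DMSO library. The 2 with exon D alone, MYO5A-205 and MYO5A-206, summed to 3.18, 3.62 and 3.22 FPKM with LBH589 and to 8.10, 10.5 and 12.9 FPKM with DMSO. The 2 with neither exon, MYO5A-201 and MYO5A-204, summed to 4.90, 6.06 and 5.08 FPKM with LBH589 and to 13.3, 15.6 and 16.4 FPKM with DMSO. All 4 classes were thus lower with LBH589, by 2.66-fold to 3.65-fold between means.

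The shares of the MYO5A classes were set side by side. Transcripts with exon F alone held 27.1 ± 6.64% of MYO5A FPKM with LBH589 and 31.8 ± 3.46% with DMSO, with overlap. Those with both exons held 19.7 ± 0.699% with LBH589 and 17.0 ± 1.58% with DMSO, without overlap, a difference that was not tested. Those with exon D alone held 20.5 ± 1.81% with LBH589 and 20.9 ± 2.64% with DMSO, and those with neither 32.8 ± 4.37% with LBH589 and 30.4 ± 3.18% with DMSO, both with overlap. For MYO5A-209, the most abundant transcript, the difference in share was -4.71 percentage points (exact two-sided permutation p = 0.5, adjusted p = 0.9 over 9 genes). MYO5A-203, MYO5A-204 and MYO5A-212 have incomplete coding annotation, with 228, 585 and 231 codons. 5 of the 7 transcripts fell in limma's test over transcripts, with log2 fold changes from -1.12 for MYO5A-201 to -1.65 for MYO5A-209. The calls of MYO5A-204 (-1.36) and MYO5A-205 (-1.28) held without any 1 library. Those of MYO5A-201, MYO5A-203 and MYO5A-209 ended without LBH589 replicate 3 (adjusted p 0.0536, 0.0667 and 0.0508). MYO5A-201 also lost its call without LBH589 replicate 1 or DMSO replicate 2 (0.0552 and 0.0538), MYO5A-209 without DMSO replicate 3 (0.0532), and MYO5A-203 without any library but DMSO replicate 1 (at least 0.0502).

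RAB27A had 5 listed transcripts, of which 1 of 4 tested fell. RAB27A-201, with the complete frame of 221 codons, was at 1.75, 2.29 and 1.47 FPKM with LBH589, against 4.65, 9.44 and 8.16 FPKM with DMSO (-1.53, limma adjusted p = 0.0226). That call ended without any 1 library other than DMSO replicate 1 (adjusted p 0.0575 to 0.0784). The 3 transcripts annotated with all 221 codons summed to 3.11, 2.29 and 2.65 FPKM with LBH589 and to 12.5, 11.5 and 23.6 FPKM with DMSO. The split between RAB27A-202 and RAB27A-212 varied widely: RAB27A-212 was at 3.94, 1.43 and 13.4 FPKM in the DMSO libraries.

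Of 12 other effectors and regulators of RAB27A 7 were listed and 6 tested, of which 5 rose and none fell. SYTL3 and EXPH5, below 0.5 FPKM with DMSO, passed the filter only through the LBH589 libraries, so the count is a description. It was 2 without DMSO replicate 3 or LBH589 replicate 2 or 3, 3 without LBH589 replicate 1, and 1 when the most abundant transcript stood for each gene. SYTL2, a synaptotagmin-like effector of RAB27A, was at 8.06, 9.70 and 9.33 FPKM with LBH589, against 2.52, 2.77 and 2.67 FPKM with DMSO (1.45, limma adjusted p = 0.000236). SYTL3, of the same family, was at 1.57, 1.94 and 2.48 FPKM with LBH589 and at 0, 0.122 and 0.233 FPKM with DMSO (1.42, limma adjusted p = 0.000777). Neither was called when its most abundant transcript stood for the gene (limma adjusted p = 0.174 and 0.133). EXPH5, another effector, rose by 0.42 (limma adjusted p = 0.0237, but 0.0523 and 0.0630 without DMSO replicate 1 or 3, and 0.545 with quantile normalization, at 0.09). TBC1D10B, which turns RAB27A off, rose by 1.02 (limma adjusted p = 0.0420, but 0.0656 to 0.121 without any 1 library other than DMSO replicate 2, 0.0532 with quantile normalization and 0.0747 with its most abundant transcript alone). MADD, which turns RAB27A on, rose by 0.39 (limma adjusted p = 0.0426, but 0.0884 to 0.128 without any 1 library other than DMSO replicate 1, and 0.504 with its most abundant transcript alone).

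Among 8 other class V myosins and actin or motor partners, 7 were tested, 3 rose and 2 fell, with a median log2 fold change of 0.34. MYO5B, the myosin V of epithelial recycling, rose to 6.13 ± 0.786 FPKM with LBH589, against 1.08 ± 0.402 FPKM with DMSO (1.79, limma adjusted p = 0.000544). DYNLL2, the light chain of myosin Va, rose to 67.0 ± 2.25 FPKM with LBH589, against 16.9 ± 1.14 FPKM with DMSO (1.93, limma adjusted p = 3.85e-05). Its relative DYNLL1, the light chain of dynein, fell by 0.80 (limma adjusted p = 0.0215, but 0.0507 to 0.0711 without DMSO replicate 2 or LBH589 replicate 1 or 3, 0.0522 with equal library sums and 0.0834 with its most abundant transcript alone). FMN1, a formin that builds actin tracks for melanosomes, fell to 28.9 ± 1.49 FPKM with LBH589, against 55.3 ± 10.9 FPKM with DMSO (-0.89, limma adjusted p = 0.00473). SPIRE2, which works with it, rose by 0.87 (limma adjusted p = 0.0231, but 0.0673 and 0.0747 without LBH589 replicate 2 or 3).

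**Figure D2:**
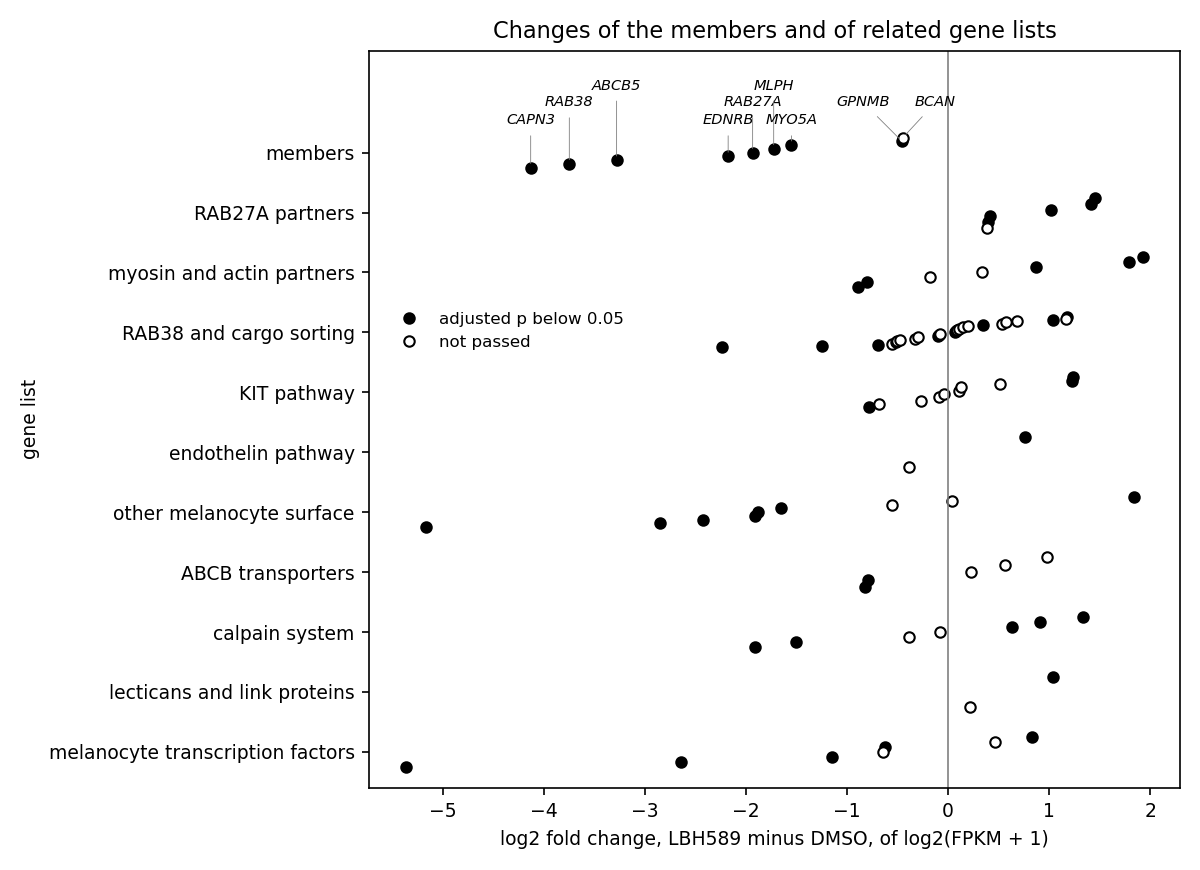
Log2 fold changes (LBH589 minus DMSO, of log2(FPKM + 1)) of the 9 genes and of the tested genes of 10 related lists, 1 point per gene; filled points have a limma adjusted p below 0.05. The 9 genes lie between -4.13 and -0.45, and all except BCAN are filled.

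EDNRB, the endothelin receptor of the melanocyte lineage, was at 4.17, 5.14 and 3.06 FPKM in the LBH589 libraries, against 20.5, 22.1 and 23.0 FPKM in the DMSO libraries. The groups were far apart and each was narrow. Its mean fell to 4.13 ± 1.04 FPKM with LBH589, against 21.8 ± 1.24 FPKM with DMSO, 5.30-fold lower (-2.18, SE 0.17, 95% interval -2.59 to -1.76, limma adjusted p = 0.000194). The transcript of the usual receptor of 442 codons, EDNRB-201, was at 0.562, 3.54 and 1.56 FPKM with LBH589, against 16.3, 18.4 and 8.20 FPKM with DMSO (-2.47, limma adjusted p = 0.0262, but 0.0649 to 0.0844 without DMSO replicate 1 or 2 or LBH589 replicate 1 or 3). EDNRB-202, annotated with 532 codons, was at 2.83, 1.25 and 1.51 FPKM with LBH589 and at 2.61, 1.10 and 14.4 FPKM with DMSO, where DMSO replicate 3 alone was high (-0.81, limma adjusted p = 0.534). The summed gene was steadier between replicates than either transcript.

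Of the 6 ligand, receptor and enzyme genes listed for the endothelin pathway, 2 were tested and 1 rose. ECE1, the enzyme that makes active endothelin from its precursor, was at 6.76 ± 1.39 FPKM with LBH589 and at 3.60 ± 0.903 FPKM with DMSO (0.76, limma adjusted p = 0.0227, but 0.0504 to 0.0693 without DMSO replicate 2 or 3 or LBH589 replicate 1 or 3). With its most abundant transcript alone ECE1 was at 0.25 (limma adjusted p = 0.571). EDNRA, the other endothelin receptor, did not pass (0.656 ± 0.0905 FPKM with LBH589 and 1.29 ± 0.862 FPKM with DMSO, limma adjusted p = 0.355), though without DMSO replicate 3 it was called as lower (-0.75, adjusted p = 0.00977).

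KIT itself was not analysed here, and 10 of 12 genes of its pathway were tested. 2 rose and 1 fell, and the median log2 fold change was 0.03. KITLG, which encodes the ligand of KIT, was at 2.55, 2.11 and 2.64 FPKM with LBH589, against 0.131, 0.559 and 0.733 FPKM with DMSO, with no overlap (1.24, limma adjusted p = 0.00268, but 0.0699 with its most abundant transcript alone). With a DMSO mean of 0.474 FPKM, KITLG passed the filter only through the LBH589 libraries. PIK3R1, a regulatory subunit of PI 3-kinase, averaged 47.6 ± 20.05 FPKM with LBH589 and 18.8 ± 0.957 FPKM with DMSO (1.23, limma adjusted p = 0.0122). LYN, a kinase of the SRC family, fell by 0.78 (limma adjusted p = 0.0267, but 0.0525 to 0.0844 without any 1 library other than DMSO replicate 1). With its most abundant transcript alone LYN was at -0.32 (limma adjusted p = 0.714). PTPN11, the phosphatase SHP2, did not pass (-0.26, limma adjusted p = 0.0791, but 0.0349 without DMSO replicate 1).

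GPNMB was by far the most abundant of the 9 genes. It was at 476, 377 and 419 FPKM in the LBH589 libraries, against 608, 558 and 572 FPKM in the DMSO libraries. The groups did not overlap but lay close together. Its mean was 424 ± 50.0 FPKM with LBH589 and 579 ± 25.7 FPKM with DMSO (-0.45, SE 0.12, 95% interval -0.75 to -0.16, limma adjusted p = 0.0219). GPNMB was not called when library sums were made equal (-0.27, limma adjusted p = 0.124), nor without LBH589 replicate 2 (adjusted p = 0.0733) or LBH589 replicate 3 (adjusted p = 0.0644).

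Of the 3 listed GPNMB transcripts 1 fell. GPNMB-201 has 11 exons and 560 codons, and GPNMB-202 adds an in-frame stretch for 572 codons. GPNMB-203 has 4 exons and 206 codons: its last exon runs 983 bases past the splice site, into an intron of 2914 bases, and the 7 exons that follow in GPNMB-201 are missing. It shares 180 codons with GPNMB-201 and then reads its own codons to a stop. As background, the membrane-spanning stretch of GPNMB lies near the end of the full protein. The switch is shown from GENCODE 29 (GRCh38, plus strand), with 15 shared bases in lower case. Capitals mark what follows them: in GPNMB-203 the intron-derived codons with the stop codon TGA at the end (chr7:23257066-23257145), in GPNMB-201 the start of its next exon (chr7:23259980-23260009), and in GPNMB-202 its added 36 bases (chr7:23266481-23266516), flanked by 15 bases on each side.
GPNMB-203: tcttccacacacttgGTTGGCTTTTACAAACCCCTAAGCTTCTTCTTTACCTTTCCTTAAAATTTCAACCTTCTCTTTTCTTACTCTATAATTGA
GPNMB-201: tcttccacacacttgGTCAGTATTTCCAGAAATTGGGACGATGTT
GPNMB-202: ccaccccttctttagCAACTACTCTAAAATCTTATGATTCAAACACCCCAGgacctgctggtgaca

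GPNMB-203 was at 98.0, 58.7 and 51.0 FPKM with LBH589, against 245, 196 and 171 FPKM with DMSO. The groups did not overlap, and its mean was 69.2 ± 25.2 FPKM with LBH589 and 204 ± 37.6 FPKM with DMSO (-1.59, SE 0.28, 95% interval -2.28 to -0.89, limma adjusted p = 0.0181 over transcripts). That call ended without DMSO replicate 1 or 2 or LBH589 replicate 2 or 3 (adjusted p 0.0554 to 0.0679). GPNMB-201 was at 287, 264 and 279 FPKM with LBH589 and at 289.9, 284 and 303 FPKM with DMSO. Its groups overlapped, and its log2 fold change of -0.08 had a 95% interval of -0.26 to 0.11 (limma adjusted p = 0.527). GPNMB-202 was at 91.7, 54.3 and 89.2 FPKM with LBH589 and at 73.0, 77.9 and 99.1 FPKM with DMSO (-0.11, 95% interval -0.72 to 0.50, limma adjusted p = 0.802). Both signs turned to positive when library sums were made equal (0.10 and 0.07). Together the long transcripts summed to 378, 318 and 368 FPKM with LBH589 and to 363, 362 and 402 FPKM with DMSO, with overlap. The share of GPNMB-201 was 60.2, 70.0 and 66.5% with LBH589 and 47.7, 50.9 and 52.9% with DMSO, without overlap (difference 15.1 percentage points, exact two-sided permutation p = 0.1, adjusted p = 0.45 over 9 genes).

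BCAN, summed over its transcripts, was at 17.7, 20.6 and 34.0 FPKM in the LBH589 libraries, against 47.0, 27.6 and 25.0 FPKM in the DMSO libraries. LBH589 replicate 3 and DMSO replicate 1 were the high ones, the groups overlapped, and the gene did not pass (-0.45, 95% interval -1.24 to 0.34, limma adjusted p = 0.301). As background, brevican exists as a secreted protein and as a shorter form held on the membrane by a lipid anchor. BCAN-201, with 14 exons and 911 codons, encodes the long form. BCAN-202 has 8 exons and 671 codons: its last exon runs 580 bases into an intron of 3389 bases, and it lacks the 6 later exons. It shares 647 codons with BCAN-201. The junction is shown from GENCODE 29 (GRCh38, plus strand), again with 15 shared bases in lower case, and in capitals the intron-derived codons with the stop TGA of BCAN-202 (chr1:156652893-156652966) and the start of the next exon of BCAN-201 (chr1:156656282-156656311).
BCAN-202: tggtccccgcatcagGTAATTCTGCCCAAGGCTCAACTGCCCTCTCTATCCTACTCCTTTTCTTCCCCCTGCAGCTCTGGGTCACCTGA
BCAN-201: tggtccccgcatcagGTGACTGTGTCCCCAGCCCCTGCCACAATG

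BCAN-202 was at 0.509, 0.537 and 2.15 FPKM with LBH589, against 15.2, 10.7 and 10.8 FPKM with DMSO. Every LBH589 library was below every DMSO library, and the mean was 1.07 ± 0.939 FPKM with LBH589 and 12.2 ± 2.57 FPKM with DMSO, 11.5-fold lower (-2.75, SE 0.36, 95% interval -3.65 to -1.86, limma adjusted p = 0.00712 over transcripts). That call was kept under 14 of 15 alternatives, with limma adjusted p up to 0.0543. BCAN-201 was at 16.1, 18.1 and 30.5 FPKM with LBH589 and at 28.9, 15.2 and 10.8 FPKM with DMSO. Its groups overlapped and it did not pass (0.29, 95% interval -0.75 to 1.32, limma adjusted p = 0.696). Its share of BCAN FPKM was 90.7, 88.3 and 89.7% with LBH589 and 61.5, 55.0 and 43.1% with DMSO, without overlap (difference 36.4 percentage points, exact two-sided permutation p = 0.1, adjusted p = 0.45 over 9 genes). GPNMB and BCAN were the 2 genes of the 9 whose main transcript's share did not overlap between the groups. How often such shares do not overlap over all genes was not computed, so this count is a description.

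**Figure D3:**
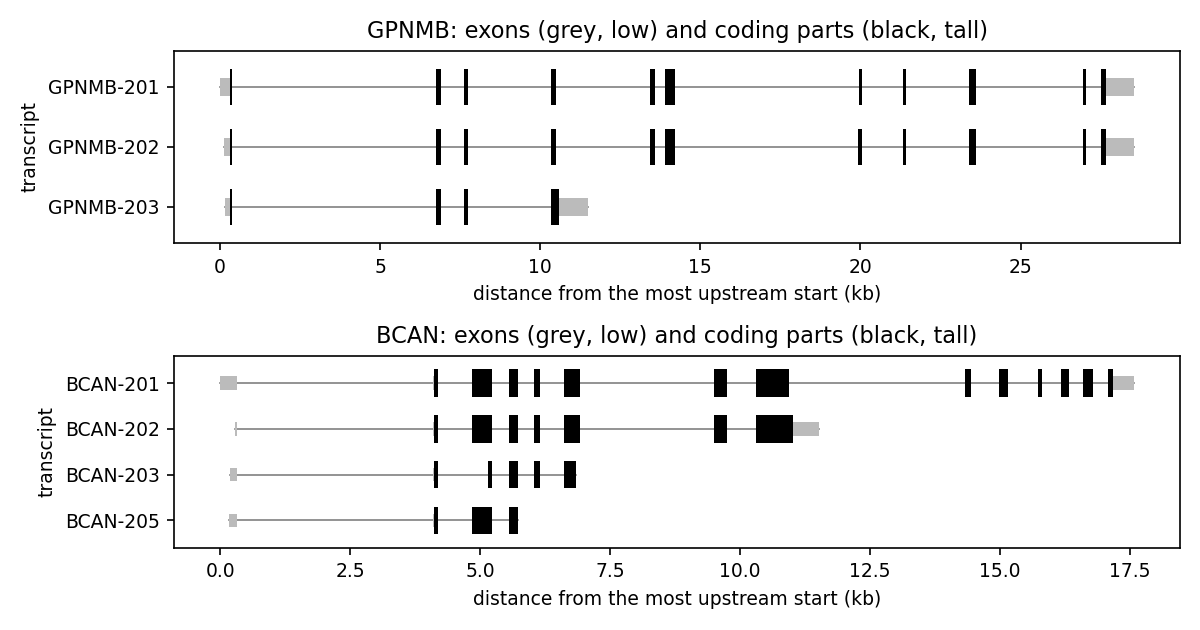
Exons of the listed GPNMB and BCAN transcripts in GENCODE 29, by distance in kilobases from the most upstream start; low grey boxes are exons and tall black boxes their coding parts. GPNMB-203, with 4 exons, and BCAN-202, with 8, end in an exon that reads into an intron of the longer transcripts, which have 11 and 14 exons.

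**Figure D4:**
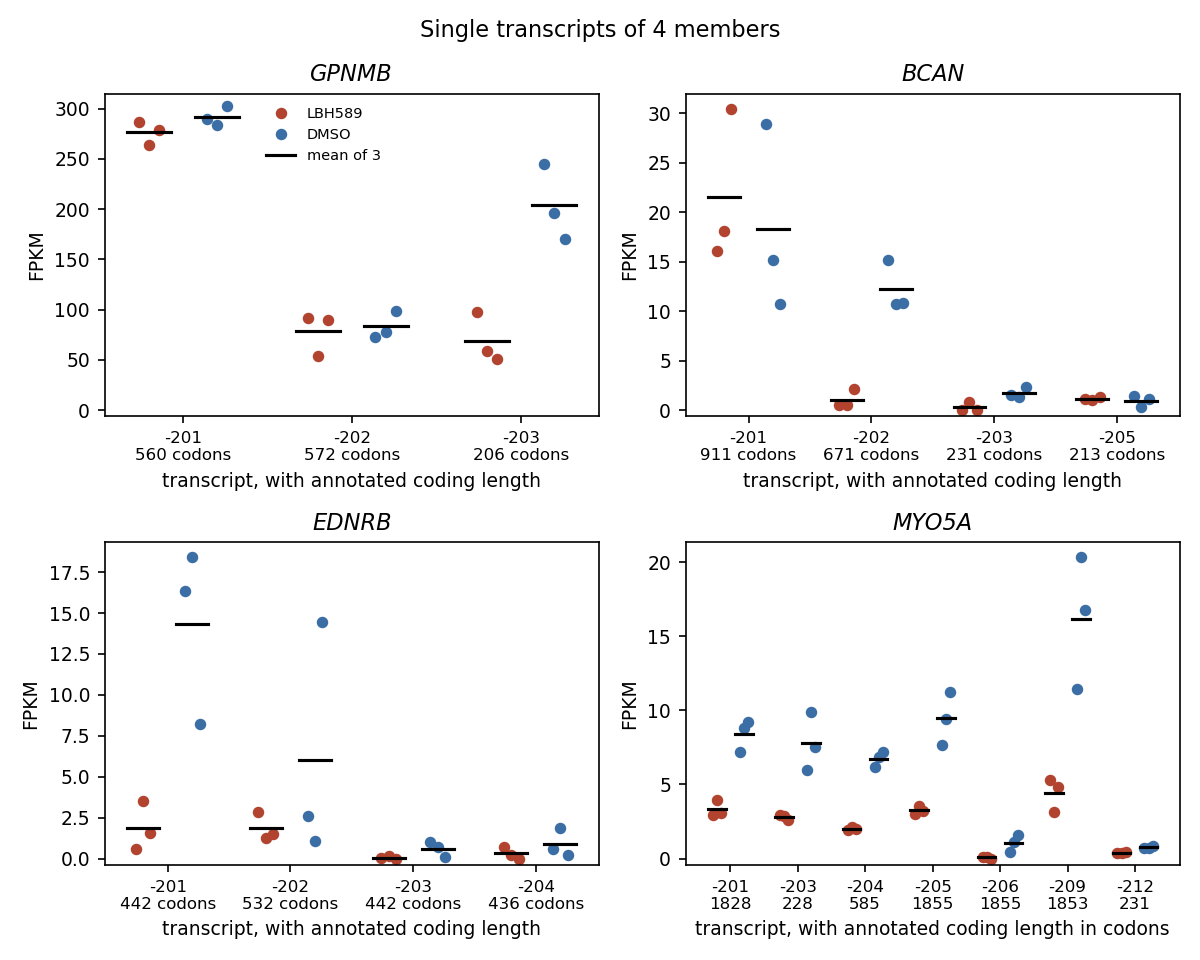
FPKM of the single listed transcripts of GPNMB, BCAN, EDNRB and MYO5A; points are the 3 libraries of each group, LBH589 left and DMSO right, lines are means, and the coding length is given under each name. GPNMB-203 and BCAN-202 are lower in all LBH589 libraries while GPNMB-201 and BCAN-201 overlap between the groups, and all 7 MYO5A transcripts are lower.

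Neighbouring genes touch these readings. In GENCODE 29 single exons of the listed BCAN transcripts share up to 328 and 354 bases with exons of the antisense genes AL365181.3 and AL590666.2. For EDNRB the largest overlap of a single exon is 80 bases, with the antisense gene RNF219-AS1. For CAPN3 it is 571 bases, with AC012651.1, a protein-coding gene on the same strand. Bases shared over all exons were not summed, so total overlaps may be larger. Whether reads were counted by strand is not given in the sources used here, so reads from the antisense overlaps cannot be told apart. Strand would not separate CAPN3 from AC012651.1.

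By the ratio of mean FPKM, the deepest falls among the 9 genes were those of ABCB5 and CAPN3. ABCB5 was at 0.446, 0.201 and 0.332 FPKM in the LBH589 libraries, against 9.58, 12.2 and 14.2 FPKM in the DMSO libraries. It was near 0 in every LBH589 library, and the groups were far apart. Its mean was 0.326 ± 0.122 FPKM with LBH589 and 12.0 ± 2.30 FPKM with DMSO, 36.7-fold lower (-3.28, SE 0.18, 95% interval -3.71 to -2.85, limma adjusted p = 5.32e-05). Most of it was ABCB5-205, which encodes the short form of 131 codons known as ABCB5 alpha, at 0.371, 0.201 and 0.146 FPKM with LBH589 and at 6.42, 10.5 and 9.95 FPKM with DMSO (-2.98, limma adjusted p = 0.00172). ABCB5-201, of 812 codons, known as ABCB5 beta, was listed at 0, 0 and 0.144 FPKM with LBH589 and at 1.21, 0.610 and 1.05 FPKM with DMSO, and just missed the threshold (limma adjusted p = 0.0507).

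Of 7 other transporters of the ABCB family 5 were tested, of which 2 fell and none rose, with a median log2 fold change of 0.23. ABCB4, a phospholipid transporter of bile, fell by 0.82 (limma adjusted p = 0.00192, but 0.919 with its most abundant transcript alone), and ABCB10, of the mitochondrial inner membrane, by 0.79 (limma adjusted p = 0.00189). ABCB9, of lysosomes, was at 0.316, 2.20 and 1.30 FPKM with LBH589 and at 0, 0.263 and 0 FPKM with DMSO. It did not pass (0.98, limma adjusted p = 0.0512). Under 6 of 13 alternatives it was called as higher, with adjusted p down to 0.00715 without LBH589 replicate 1. With a DMSO mean of 0.0878 FPKM, ABCB9 passed the filter only through the LBH589 libraries, so these calls are a description. ABCB8, of mitochondria, did not pass (0.56, limma adjusted p = 0.352).

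CAPN3 was at 2.30, 1.75 and 1.27 FPKM in the LBH589 libraries, against 53.2, 41.9 and 46.5 FPKM in the DMSO libraries. Its groups were also far apart. The mean fell to 1.77 ± 0.512 FPKM with LBH589, against 47.2 ± 5.68 FPKM with DMSO, 26.6-fold lower (-4.13, SE 0.17, 95% interval -4.55 to -3.71, limma adjusted p = 3.15e-05). Its RNA was of the short kind in both groups: the 7 of 8 transcripts that start at least 40000 bases downstream of CAPN3-201, which has 773 codons, held 98.7 ± 2.34% of CAPN3 FPKM with LBH589 and 96.3 ± 4.01% with DMSO. CAPN3-219, of 156 codons, was the main one, at 1.23, 1.48 and 0.499 FPKM with LBH589 and at 30.8, 27.3 and 26.2 FPKM with DMSO (-3.84, limma adjusted p = 0.000912). CAPN3-201 was at 0.0930, 0 and 0 FPKM with LBH589 and at 0.492, 3.47 and 0.850 FPKM with DMSO (-1.17, limma adjusted p = 0.151). CAPN3-202, CAPN3-207 and CAPN3-212 were listed at 0 in all 3 LBH589 libraries.

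Of 11 other genes of the calpain system 7 were tested, and 3 rose and 2 fell, with a median log2 fold change of -0.08. CAPN2 and CAPN1, the large subunits of the widespread calpains, fell by 1.51 (adjusted p = 0.00264) and 1.91 (adjusted p = 0.00502) in limma's test. CAPN5 rose by 1.34 (limma adjusted p = 0.00408) and CAPN7 by 0.63 (limma adjusted p = 0.0063). CAST, the calpain inhibitor calpastatin, averaged 92.0 ± 20.3 FPKM with LBH589 and 48.9 ± 14.02 FPKM with DMSO (0.91, limma adjusted p = 0.0253, but 0.0689 to 0.0814 without DMSO replicate 1 or 3 or LBH589 replicate 2 or 3, and 0.406 with its most abundant transcript alone).

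Over all members, 41 transcripts were listed and 37 tested, of which 17 fell and none rose. Over all 27042 transcripts tested, 15.9% were called, 7.33% fell and 8.62% rose. 6 of the 17 fell by at least 2 on the log2 scale, as 1.65% of all tested transcripts did. 26 of the 37 tested had groups that did not overlap, all with LBH589 below DMSO. Of all tested transcripts 36.9% did not overlap and 17.2% had LBH589 wholly below DMSO. 18 of the 37 had an LBH589 mean under 0.5 FPKM and passed the filter only through the DMSO libraries, so these counts are a description. 17 of the 41 were listed at 0 in some library. Each of the 9 genes except MLPH had at least 1 transcript that fell.

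Of 11 other genes of the melanocyte surface and melanosome membrane 9 were tested, 6 fell and 1 rose, with a median log2 fold change of -1.88. Over all genes, 21.6% fell and 27.2% rose. TRPM1, a cation channel, fell by 5.17, GPR143, a receptor on melanosomes, by 2.85 (limma adjusted p = 0.000109), and SLC45A2, a melanosome transporter, by 2.42 (limma adjusted p = 0.000129). TRPM1 averaged 0.220 FPKM with LBH589 and 42.1 FPKM with DMSO. It passed the filter only through the DMSO libraries, so the count is a description. NGFR, a receptor of the neural crest, rose: it was at 1.91, 2.69 and 3.24 FPKM with LBH589 and listed at 0 in every DMSO library (limma adjusted p = 0.000315), so it passed the filter only through the LBH589 libraries. Among the lecticans and link proteins, the family of BCAN, 2 of 8 were tested and 1 rose. NCAN, neurocan, was at 1.03, 1.02 and 1.11 FPKM with LBH589 and listed at 0 with DMSO (limma adjusted p = 0.000425), so it too passed the filter only through the LBH589 libraries, and HAPLN3 did not pass (0.21, limma adjusted p = 0.688).

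Of 8 transcription factors of the melanocyte lineage 7 were tested, and 4 fell and 1 rose, with a median log2 fold change of -0.64. SOX10 fell by 5.36, MITF by 2.64, TFAP2A by 1.15 (limma adjusted p = 0.00113) and PAX3 by 0.62 (limma adjusted p = 0.0111, but 0.0767 with its most abundant transcript alone). The MITF call rests on the sum of its transcripts: the most abundant alone gave 0.06 (limma adjusted p = 0.979). TFE3, of the family of MITF, rose by 0.83 (limma adjusted p = 0.0219, but 0.0678 without DMSO replicate 2).

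MITF binds the letters TCATGTG and TCACGTG, so the promoters of the genes were searched for them on both strands. RefSeq (GRCh38.p14) gave 16 promoters, from 250 bases before to 50 after a start, for 8 of the 10 symbols, KIT included. 1 of the 16 held TCATGTG and none held TCACGTG, against 2.92% and 3.71% of all 35116 promoters. The 1 was that of GPNMB on chromosome 7, plus strand, chr7:23246525-23246824, with 2 matches on the minus strand, at -123 and -62 bases from the start. It is printed with the matches in capitals, which read CACATGA on the plus strand. The shorter CACGTG, contained in TCACGTG, was also searched. It was in 1 of the 16 promoters, of MLPH, against 7.26% of all 35116. A match describes the letters and is no site of binding.
GPNMB promoter: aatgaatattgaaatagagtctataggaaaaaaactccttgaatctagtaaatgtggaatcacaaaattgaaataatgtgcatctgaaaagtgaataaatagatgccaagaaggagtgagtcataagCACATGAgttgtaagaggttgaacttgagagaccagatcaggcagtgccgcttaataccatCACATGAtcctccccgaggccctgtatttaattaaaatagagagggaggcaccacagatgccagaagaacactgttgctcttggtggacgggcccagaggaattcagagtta

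For each gene, the tested gene with the most similar centred log2(FPKM + 1) profile over the 6 libraries was looked up among 7636 genes whose higher group mean reached 5 FPKM. For MYO5A it was ACACA, at a Euclidean distance of 0.170, with 4.29, 4.85 and 4.31 FPKM with LBH589 and 12.6, 17.1 and 17.0 FPKM with DMSO. For CAPN3 it was CABLES1 (distance 0.313), for RAB38 FABP3 (0.570), for ABCB5 RNLS (0.205) and for EDNRB CHD3 (0.218). For RAB27A it was PLK4 (0.398), for MLPH ABI1 (0.314), for GPNMB ZCCHC8 (0.111) and for BCAN PIP5K1A (0.254).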

How the data were processed

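RNA of the uveal melanoma line 92.1 was sequenced with a TruSeq RNA kit from Trizol extracts, per the labels' protocols. Each deposited table holds FPKM by transcript, as its header says. The submitters' processing notes name Bowtie 0.12.2 and hg19 but no role for either. The quantifier, the annotation, the filter and the use of strand were not given in the sources used here. For all 30624 listed transcripts the higher group mean reached 0.5 FPKM. FPKM divides by transcript length and library size, so depth is lost and no counting interval can be given: at best between 14.7 and 37.9% of low values per library fell on whole steps (tolerance 0.05 of a step).

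30504 transcripts (99.6%) were named through GENCODE 29, whose build, GRCh38, is later than the files', so its coordinates are used for its own exons alone. FPKM was summed per gene. limma 3.58.1 (R 4.3.3, statmod 1.5.0; trend, robust, treatment as the only term) was run on log2(FPKM + 1) over all genes, and over all transcripts, with a mean of at least 0.5 FPKM, and tested on simulated data. Exact permutation tests (two-sided, scipy 1.17.1) were used for ratios and shares, with 0.1 the smallest p possible. The members and lists were chosen with earlier results of these data known. Up to 4 genes per list with the smallest adjusted p are named; MADD, SPIRE2, ANKRD27, HPS1, CAST and TFE3 were added after their values were seen. 1 gene of the list of transporters is not reported here. Alternatives were other pseudocounts, filters, scalings, moderation and thresholds, a replicate block, each library left out, and a gene's most abundant transcript instead of its sum.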

Additional observations from a re-analysis of the deposited data

How the results depend on the processing

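The number of the 9 genes called, 8, stayed between 6 and 8 under all 16 alternatives, always as falls: 7 with a mean of at least 5 FPKM (MLPH then untested), equal library sums, adjusted p below 0.01, or without LBH589 replicate 2 or 3, and 6 when a gene's most abundant transcript stood for it. Making library sums equal moved the median of all genes from 0.08 to 0.23 and the share of rises among calls from 55.8 to 65.2%. The cause was not tested.

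The number of member transcripts called, 17, was 10 with a mean of at least 5 FPKM (fewer transcripts tested), 5 at adjusted p below 0.01, 4 with the replicate block, and 7 to 14 without 1 library (fewest without LBH589 replicate 3). The labels do not say whether equal replicate numbers pair the samples. Deviations of same-numbered libraries correlated at -0.104, 0.0215 and -0.0350, which with so few libraries cannot settle it. With the block 8 of the 9 genes were called.

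The log2 fold change of BCAN was 0.29 and that of MITF 0.0595 with the most abundant transcript. With equal library sums GPNMB-201 was at 0.10, GPNMB-202 at 0.0652 and RAB27A-209 at 0.0282, and quantile normalization gave GPNMB-202 0.0095. Leaving out 1 library turned the sign of BCAN-201 (-0.015 to 0.66), BCAN-205 (-0.075 to 0.35), EDNRB-202 (-1.42 to 0.017), GPNMB-202 (-0.24 to 0.13), RAB27A-209 (-0.37 to 0.29) and HAPLN3 (-0.0019 to 0.50), none of them called. It also turned the log2 ratio of RAB27A to MLPH (-0.029 to 0.63) and the share differences, in percentage points, of the main transcripts of RAB27A (-0.592 to 17.1), MLPH (-11.5 to 37.1), ABCB5 (-10.7 to 17.3) and CAPN3 (-13.3 to 9.49). The ratios with MLPH could not be computed from the most abundant transcript, which is listed at 0 in a library, nor the share of MLPH from transcripts of at least 1 FPKM, of which 1 is left.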
